A study of Mus musculus with 6 samples.

Results

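The Hox genes encode homeodomain transcription factors that mark position along the body axis. They were taken here as the rows whose gene name is Hox followed by a cluster letter (a, b, c or d) and a number. Of the 39 Hox genes annotated in the mouse genome, 28 were named in the expression table, in 25 of 31097 rows. RNA had been sequenced from 3T3-F442A cells, a mouse preadipocyte line that the labels call an adipocyte line. There were 3 libraries of cells with intact SWELL1 (WT) and 3 libraries of cells in which SWELL1 was knocked out with CRISPR/Cas9 (SWELL1 KO). SWELL1, also named Lrrc8a, belongs to the anion channel that opens when a cell swells. Both groups were grown in RPMI with 10% FBS, and no other allele or agent is given for either. The labels call the libraries of a group biological replicates but do not say how many KO clones they came from or whether cells were differentiated, and an unexplained mark, D3, stands in the names of the KO samples. KO against WT therefore compares these libraries together with any difference between clones or handling, and its p-values reflect only how much libraries of a group vary.

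In the embryo, Hox genes are switched on along each cluster in the order of their paralogue number, low numbers towards the head and high numbers towards the tail and the ends of the limbs. Fibroblasts and preadipocytes taken from the body keep much of this pattern in culture, and fat depots of different body regions differ in the Hox genes they express. Hox proteins bind DNA together with cofactors of the TALE class (Pbx, Meis and Pknox), and their genes are kept silent or active by Polycomb and trithorax proteins.

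The values were read as FPKM, which divides fragments by transcript length and by library size, a scale on which genes of different length can be set side by side. Libraries were estimated to hold 17.1 to 20.8 M (WT) and 18.4 to 26.0 M (KO) fragments. At these depths, 1 FPKM on a transcript of 1 kb stands for about 17.1 to 26.0 fragments. An exact 0 can be a failed estimate in these values, since 231 rows had a 0 in a library and 5 FPKM or more in another of its group. Summed fibroblast and preadipocyte markers were at 5309 to 6053 FPKM in WT and 4411 to 4517 FPKM in KO. Summed fat cell markers were at 136 to 195 FPKM in WT and 2.71 to 4.63 FPKM in KO. Most of this sum was Fabp4, at 188, 156 and 133 FPKM in WT and 2.45, 3.48 and 4.37 FPKM in KO. Adipoq, the adiponectin gene, had 1.87, 1.55 and 1.26 FPKM in WT beside 0.0443, 0 and 0 FPKM in KO. Of the other types, all 3 skeletal muscle markers with a row were listed at 0 in every library, and macrophage, endothelial, epithelial and cartilage and bone markers each summed to under 2 FPKM in every library. Over all types, 12 marker rows were tested, 2 higher and 10 lower in KO (median log2 fold change -0.89), where over all rows tested with limma 65.2% passed an adjusted p of 0.05, 28.5% higher and 36.7% lower. Among the lower markers were Fabp4, a fat cell gene that fell by 5.36, and Thy1, a fibroblast gene that fell by 1.00 on the log2 scale. The 2 higher markers, Pdgfrb and Vim, are from the same fibroblast and preadipocyte list as Thy1 and rose by 0.50 and 0.36. Pparg and Plin1, both fat cell genes, fell by 1.85 and 1.31, and Lyz2, a macrophage marker, fell by 1.59. The fat cell markers thus moved with the genotype, and their part in the Hox differences was not tested. Fewer cells of a type and less RNA per cell cannot be told apart in bulk RNA.

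A Hox row was called on when its mean in a group was 1 FPKM or more. The same 5 rows were on in WT and in KO: Hoxa7, Hoxb2, Hoxd8, Hoxd9 and a row shared by Hoxb7 and Hoxb8. None of them switched state, against 9.3% of the 10168 rows of the whole table that were on in either group. With only 5 rows, a count of none cannot be told apart from that share. The absence of a switch also depends on the threshold. Hoxd9 had means of 1.23 FPKM in WT and 2.23 FPKM in KO, and a threshold between these would make it switch. Of the other Hox rows, 7 had a value above 0 in at least 1 library but stayed below 1 FPKM, and 13 were listed at 0 in all 6 libraries. Over all rows, 31.0% were on in WT, 31.4% were on in KO, and 46.2% were listed at 0 throughout. The other 11 Hox genes had no row of their name and were not analysed here. They are Hoxa2, Hoxa3, Hoxa4, Hoxa5, Hoxa6, Hoxb3, Hoxb4, Hoxb5, Hoxb6, Hoxd3 and Hoxd4, so most of the genes of paralogue groups 3 to 6 are missing from the description.

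The promoters of Hox genes that were on are shown first, since neighbouring genes stood at different levels. Each is the reference sequence from 250 bases before to 50 bases after the start of the gene in RefSeq, 5′ to 3′ on the gene's strand, from RefSeq on GRCm38.p6. RefSeq promoters were matched for 4 of the 6 genes named in rows that were on. Capitals mark CG dinucleotides in the promoters of Hoxd8 (chr2:74704365-74704664, plus strand), Hoxd9 (chr2:74697513-74697812, plus strand) and Hoxa7 (chr6:52218524-52218823, minus strand). Gene spans below are from GENCODE, whose Hoxa7 starts further upstream than the RefSeq start used here, so the Hoxa7 window lies inside the GENCODE gene.
Hoxd8: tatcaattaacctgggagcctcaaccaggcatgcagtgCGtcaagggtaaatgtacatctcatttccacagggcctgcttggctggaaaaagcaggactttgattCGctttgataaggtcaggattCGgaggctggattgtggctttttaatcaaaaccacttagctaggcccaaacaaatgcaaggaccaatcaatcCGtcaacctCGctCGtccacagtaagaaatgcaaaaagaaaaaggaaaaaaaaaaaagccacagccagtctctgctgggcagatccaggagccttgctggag
Hoxd9: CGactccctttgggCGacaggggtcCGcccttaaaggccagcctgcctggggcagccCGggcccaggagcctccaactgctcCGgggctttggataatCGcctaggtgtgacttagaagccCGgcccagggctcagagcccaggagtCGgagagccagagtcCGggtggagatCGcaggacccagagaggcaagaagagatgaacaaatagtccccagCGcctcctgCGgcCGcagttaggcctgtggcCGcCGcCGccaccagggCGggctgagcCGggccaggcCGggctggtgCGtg
Hoxa7: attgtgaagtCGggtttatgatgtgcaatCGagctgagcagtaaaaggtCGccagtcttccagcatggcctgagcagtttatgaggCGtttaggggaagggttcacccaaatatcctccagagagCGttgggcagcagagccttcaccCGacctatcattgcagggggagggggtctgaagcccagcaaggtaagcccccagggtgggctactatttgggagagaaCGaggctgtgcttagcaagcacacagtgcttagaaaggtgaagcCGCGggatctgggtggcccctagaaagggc
The promoter of Hoxd9 held 20 CG dinucleotides, and 26.5% of all 32851 RefSeq promoters of this length held as many or more. Hoxa7 held 9 CG and Hoxd8 held 6, and the median of all promoters was 7. The neighbours Hoxd9 and Hoxd8 thus differ in promoter CG content as well as in level, a description from a single pair of sequences. Over Hox promoters, CG content overlapped between states. It was 6 to 20 (median 11) for genes that were on and 4 to 45 (median 15) for genes listed at 0. For genes above 0 but not on, it was 4 to 25 (median 15.5).

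The promoter of Hoxb8 (chr11:96281655-96281954, plus strand) is shown with motif matches in capitals, since it held more kinds of the motifs searched than the other 3.
Hoxb8: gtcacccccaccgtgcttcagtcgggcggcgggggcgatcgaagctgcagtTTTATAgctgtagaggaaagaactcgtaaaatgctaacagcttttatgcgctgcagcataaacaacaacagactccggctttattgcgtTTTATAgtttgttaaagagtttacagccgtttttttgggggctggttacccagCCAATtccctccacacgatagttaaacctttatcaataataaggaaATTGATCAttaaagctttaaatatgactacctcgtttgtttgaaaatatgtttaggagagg
Each motif was searched on both strands, and none is contained in another. The TATA box was searched as TATAAA. The second motif, a box found in many promoters, was searched as CCAAT. The core bound by Meis proteins was searched as TGACAG. The composite element of Pbx with a Hox protein was searched as TGATNNAT. Hoxb8 held TATAAA 2 times, CCAAT 1 time and TGATNNAT 1 time. Of all promoters of this length, 13.6% held TATAAA, 37.4% held CCAAT and 8.85% held TGATNNAT. Hoxd8 held CCAAT 1 time, and Hoxd9 and Hoxa7 held none of the 4. A match is a run of letters in this window and not a measured binding site.

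Hoxa7, Hoxb7 and Hoxb8 also have letters that pair with a miRNA encoded inside the Hox clusters, so the mature sequences are shown with the seed (bases 2 to 8) in capitals. miR-196a and miR-196b share a seed, and miR-10a and miR-10b share another. Their mature sequences lie at chr11:96265187-96265208 (plus strand), chr6:52230129-52230150 (minus strand), chr11:96317186-96317208 (plus strand) and chr2:74726074-74726096 (plus strand) on GRCm38.p6, in the order shown.
miR-196a-5p: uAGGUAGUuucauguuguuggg
miR-196b-5p: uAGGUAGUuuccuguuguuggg
miR-10a-5p: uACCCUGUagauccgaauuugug
miR-10b-5p: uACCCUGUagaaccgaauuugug
The 3′ UTR of Hoxa7 (1219 bases) held 4 copies of ACTACCT, the match to the miR-196 seed, and that of Hoxb7 (532 bases) held 1. Among the 1405 mouse genes whose 3′ UTR is within 10% of the length of that of Hoxa7, 4.84% held the match at all and 1, Hoxa7 itself, held 4 or more. Among the 1053 genes within 10% of the length of Hoxb7, 1.99% held it. The best pairing of miR-196a-5p in the Hoxb8 3′ UTR (845 bases) lay at bases 418 to 439, with 21 Watson-Crick pairs and 1 G-U pair.
Hoxb8 site, with the bases opposite the seed in capitals: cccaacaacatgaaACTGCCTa
Neither Hoxb2 nor Hoxd8 nor Hoxd9 held ACTACCT, and no gene of a row that was on held ACAGGGT, the match to the miR-10 seed. Rows named for the precursors Mir196a-1, Mir196a-2 and Mir196b were listed at 0 in all libraries. The name Mir196b stands in the row of Hoxa9, so its 0 is the same value as that of Hoxa9. The rows of Mir196a-1 and Mir196a-2 count fragments of precursors in an RNA-seq library. None of these rows measures the mature miRNA.

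Against this background of sequence, levels are given cluster by cluster. Of the 5 rows that were on, all were tested with limma on log2(FPKM + 0.5), and 3 passed an adjusted p of 0.05: Hoxd9 was higher in KO, and Hoxb2 and the row of Hoxb7 and Hoxb8 were lower. Over all 10515 rows tested, 65.2% passed, 28.5% higher and 36.7% lower in KO. The Hox count of 3 of 5 is therefore near the share of the table as a whole. Median log2 fold change (KO minus WT) was -0.13 over the 5 Hox rows and -0.07 over all rows tested.

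**Figure D1:**
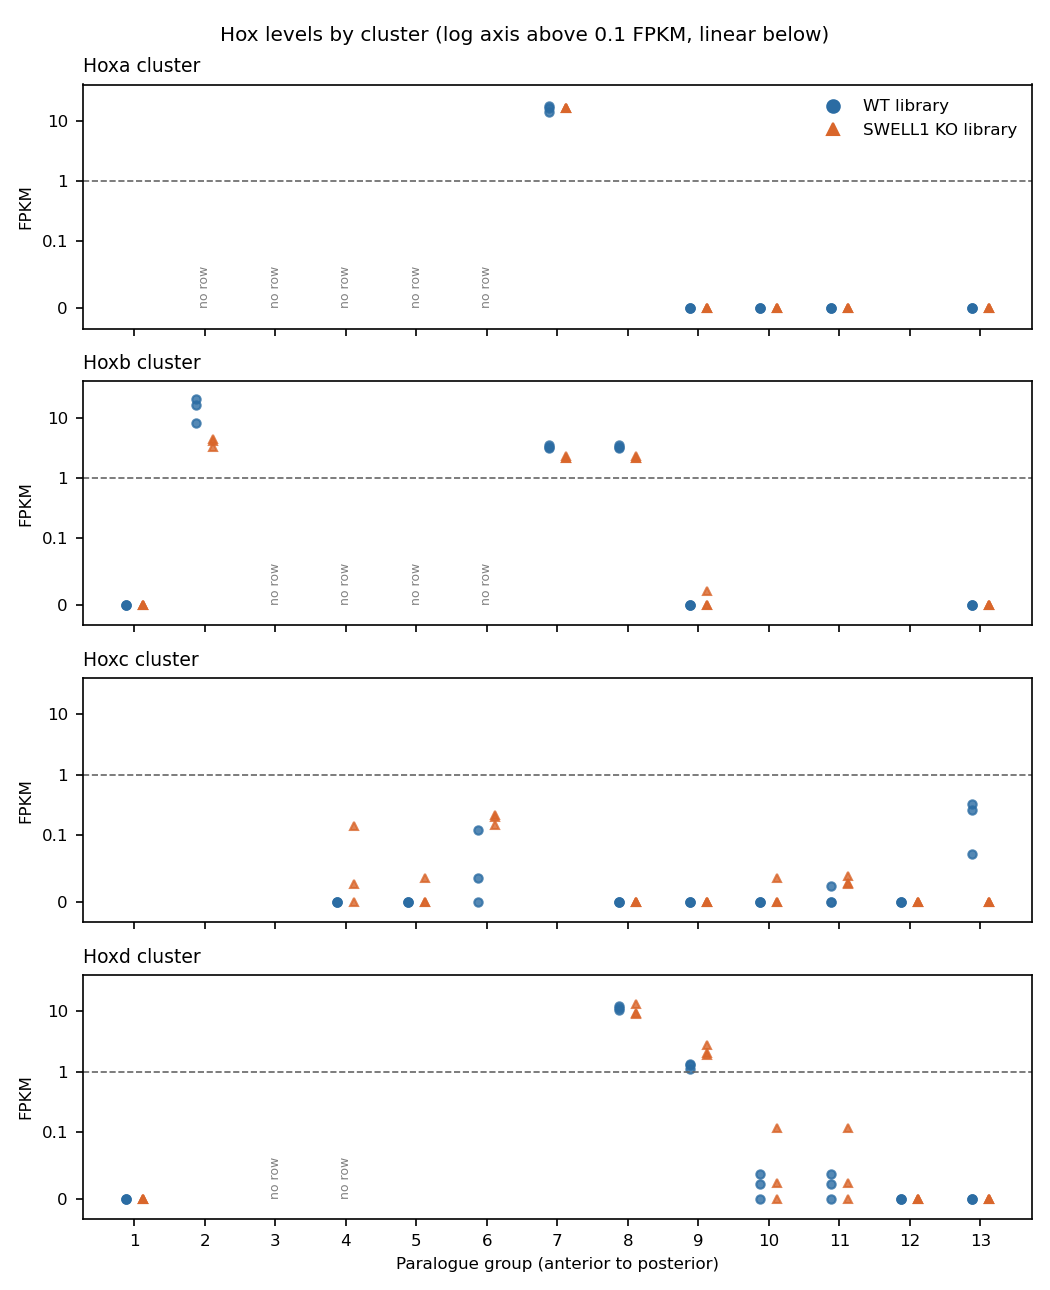
Level (FPKM) of each Hox gene along the 4 clusters in paralogue order, with a circle for each WT library, a triangle for each KO library and a dashed line at 1 FPKM; genes with no row are marked, and a blank position is not drawn. The same 5 rows lie above the line in both groups, and a shared row (Hoxb7 with Hoxb8, Hoxc5 with Hoxc10, Hoxd10 with Hoxd11) is drawn with the same values at both genes.

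The Hoxa cluster lies on chromosome 6 (positions are on GRCm38) and spans 105 kb. Hoxa7 (chr6:52214491-52221854, minus strand), a trunk-level gene of the middle of the cluster, was its only row that was on. It measured 14.1, 16.2 and 17.5 FPKM in WT, against 16.5, 16.3 and 16.4 FPKM in KO. The KO libraries lay within the WT range. The log2 fold change was 0.05 (SE 0.08, adjusted p = 0.631), with a 95% interval of -0.16 to 0.25, or 0.898-fold to 1.19-fold. Hoxa7 was the highest Hox row in both groups by mean, 15.9 ± 1.73 FPKM in WT and 16.4 ± 0.129 in KO (SD, n = 3). In WT its range overlapped that of Hoxb2, which followed it at a mean of 14.7 FPKM. Of the 7364 bases of Hoxa7, 586 overlap Hoxaas3, an antisense gene. Since strandedness is not given, reads in that stretch cannot be assigned to either gene. The tail-side genes Hoxa9, Hoxa10, Hoxa11 and Hoxa13 were listed at 0 in all 6 libraries. Hoxa10, Hoxa11 and Hoxa13 pattern the limb and the reproductive tract. The row of Hoxa9 also carries the names 9930038K12Rik and Mir196b.

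The Hoxb cluster (chr11:96194316-96368256) held the largest difference among the tested Hox rows. Hoxb2 (chr11:96350525-96354012, plus strand), an anterior gene best known for its part in hindbrain segments and their motor neurons, measured 8.09, 20.1 and 15.9 FPKM in WT, against 4.17, 4.35 and 3.31 FPKM in KO. The WT libraries spread widely and the KO libraries lay close together, with no overlap between groups. Mean level was 14.7 ± 6.09 FPKM in WT and 3.94 ± 0.557 FPKM in KO (SD, n = 3), 3.73-fold lower in KO. The log2 fold change was -1.69 (SE 0.33, adjusted p = 0.00511). Among rows that were on in either group, the mean of Hoxb2 stood at the 57.9th percentile in WT and at the 23.5th in KO. All 3488 bases of the gene lie within Hoxb3os, an antisense gene with no row of its name, and no source used here says whether the libraries kept strand. Reads from the antisense gene and from Hoxb2 therefore cannot be told apart.

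Hoxb7 (chr11:96286623-96290162) and Hoxb8 (chr11:96281905-96285315) are neighbouring plus-strand genes of the trunk-level middle of the cluster. Their shared row measured 3.29, 3.49 and 3.10 FPKM in WT, against 2.17, 2.34 and 2.16 FPKM in KO. The groups did not overlap, and each spread over less than the gap between them. The row fell by 0.48 on the log2 scale (SE 0.07, adjusted p = 0.00187), a mean 1.48-fold lower in KO. How much of it belongs to Hoxb7 and how much to Hoxb8 is not shown by the values. Over all tested rows, the groups did not overlap in 71.8%.

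The remaining Hoxb rows were low or listed at 0. Hoxb9, a trunk gene of the thoracic level, had a value in 1 KO library alone, 0.0216 FPKM, worth about 1 fragment. Hoxb1 at the anterior end and Hoxb13 at the posterior end, a gene of the tail and prostate, were listed at 0 in all 6 libraries. Summed over the cluster, Hoxb rows came to 11.4, 23.6 and 19.0 FPKM in WT and to 6.34, 6.69 and 5.49 FPKM in KO. The ratio of Hoxb2 to the row of Hoxb7 and Hoxb8 was 2.46, 5.75 and 5.15 in WT and 1.92, 1.86 and 1.53 in KO, and every KO ratio was below every WT ratio. An exact two-sided permutation test gave p = 0.1, the smallest that 3 against 3 libraries allow, or 0.15 when adjusted over the 3 ratios compared.

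No row of the Hoxc cluster (chr15:102921103-103036852) was on, although all 9 of its genes were named in 8 rows. Cluster sums came to 0.109, 0.326 and 0.405 FPKM in WT and to 0.288, 0.328 and 0.247 FPKM in KO. Hoxc13, a gene of hair and nail, had 0.0723, 0.326 and 0.259 FPKM in WT, worth about 3.05, 15.3 and 13.3 fragments, and was listed at 0 in all 3 KO libraries. Hoxc6, a trunk gene, measured 0.0367, 0 and 0.121 FPKM in WT, against 0.198, 0.146 and 0.219 FPKM in KO, worth about 6 fragments in each KO library. The groups did not overlap for either gene, with Hoxc13 above 0 in WT alone and every KO value of Hoxc6 above its WT values. Both were too low for the main test. With no filter on low values, the adjusted p was 0.0297 for Hoxc13 (log2 fold change -0.51) and 0.0352 for Hoxc6 (0.32), so that 5 of 12 Hox rows passed, near the 45.4% of all rows in that fit.

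The other Hoxc rows rested on a handful of fragments. Hoxc4 was listed at 0 in all WT libraries and had 0.0275, 0.142 and 0 FPKM in KO. Hoxc11 stayed at 0.0397 FPKM or less in every library. The row shared by Hoxc5 and Hoxc10 had a value in 1 KO library alone, 0.0361 FPKM. Hoxc8, Hoxc9 and Hoxc12 were listed at 0 in all 6 libraries. Hoxc8 and Hoxc9 are genes of the thoracic level that are often used as markers of white fat, and neither was on in these cells.

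The Hoxd cluster (chr2:74668310-74765142) held 2 neighbours that were on. Hoxd8 (chr2:74704615-74707933, plus strand), a trunk gene, measured 12.2, 10.5 and 11.4 FPKM in WT, against 13.0, 8.998 and 9.26 FPKM in KO. KO replicate 1 was the highest of the 6 libraries and the other KO libraries were the lowest, so the groups overlapped. The log2 fold change was -0.13 (SE 0.15, 95% interval -0.50 to 0.23, adjusted p = 0.458). Without KO replicate 1 it was -0.30 with an adjusted p of 0.0237, so that library decides the call. All 3319 bases of Hoxd8 lie within Hoxd3os1, an antisense gene whose row had 0, 2.16 and 0 FPKM in WT and was listed at 0 in KO.

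Hoxd9 (chr2:74697727-74700208, plus strand), a gene of the lumbar level and the upper limb segment, lies 4406 bases before Hoxd8. It measured 1.32, 1.09 and 1.29 FPKM in WT, against 1.87, 2.023 and 2.79 FPKM in KO, worth about 44.5 to 57.5 fragments in WT and 76.6 to 112 fragments in KO. Every KO library was above every WT library. Mean level was 1.23 ± 0.125 FPKM in WT and 2.23 ± 0.490 FPKM in KO (SD, n = 3), 1.81-fold higher. Hoxd9 rose by 0.64 on the log2 scale (SE 0.15, adjusted p = 0.0102), and it was the only one of the 5 tested Hox rows that rose past the threshold. The ratio of Hoxd9 to Hoxd8 was 0.108, 0.104 and 0.114 in WT and 0.144, 0.225 and 0.301 in KO. The exact two-sided permutation test of this ratio also gave p = 0.1, the smallest possible, or 0.15 adjusted over the 3 ratios. The third ratio, Hoxa7 to Hoxd8, gave p = 0.5 in the same exact test.

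The other Hoxd rows were low or listed at 0, and a listed 0 need not mean that the gene was silent. The row shared by Hoxd10 and Hoxd11 measured 0.0222, 0 and 0.0368 FPKM in WT, against 0, 0.0237 and 0.116 FPKM in KO. Hoxd12 and Hoxd13, genes of the hand, foot and genital bud, and Hoxd1 at the opposite end were listed at 0 in all 6 libraries.

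**Figure D2:**
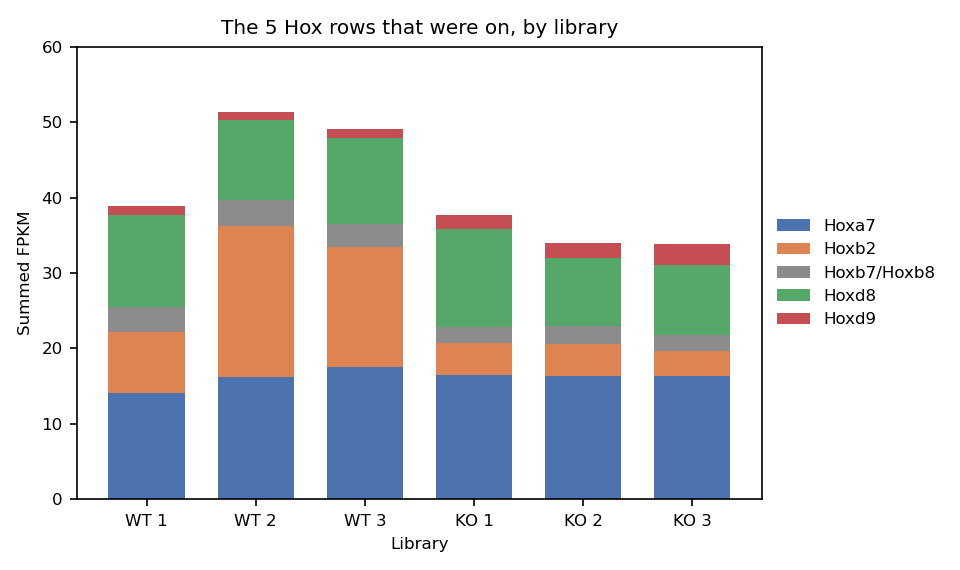
Summed FPKM of the 5 Hox rows that were on in each of the 6 libraries, as stacked bars with a colour for each row. The Hoxb2 part is smaller in every KO bar, where it lies between 3.31 and 4.35 FPKM, than in any WT bar, where it lies between 8.09 and 20.1 FPKM.

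Read by paralogue number, the rows that were on belonged to groups 2, 7, 8 and 9. Hoxb1 and Hoxd1 of the first group were listed at 0, and no row of groups 10 to 13 was on in either genotype. Within the ninth group, Hoxd9 was on, Hoxa9 and Hoxc9 were listed at 0 and Hoxb9 was at 0 in all but 1 library. Summed Hox level was 39.1, 51.7 and 49.6 FPKM in WT and 38.0, 34.3 and 34.3 FPKM in KO. Hoxb2 made up 30.6% of that sum in WT and 11.1% in KO. Hoxa7 made up 34.2% in WT and 46.2% in KO, and Hoxd9 2.69% in WT and 6.32% in KO. The share of the shared Hoxb7 and Hoxb8 row was 7.14% in WT and 6.28% in KO, and that of Hoxd8 was 24.8% and 29.1%. Order by mean in WT was Hoxa7, Hoxb2, Hoxd8, Hoxb7 with Hoxb8, then Hoxd9. In KO it was Hoxa7, Hoxd8, Hoxb2, Hoxd9, then Hoxb7 with Hoxb8, and the last pair had means of 2.23 and 2.22 FPKM with overlapping libraries.

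**Figure D3:**
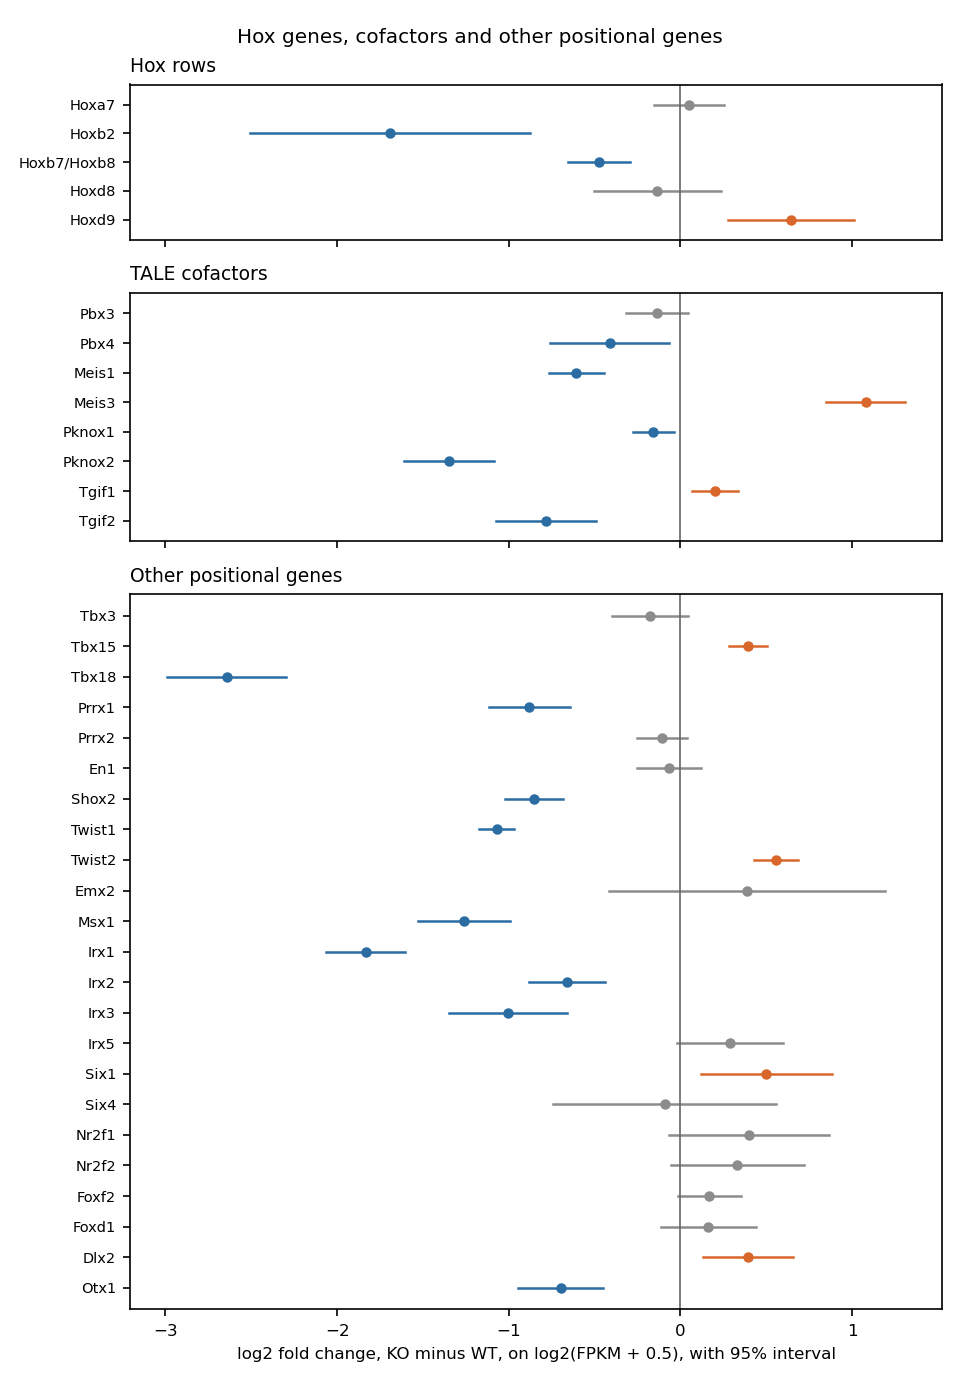
Log2 fold change (KO minus WT on log2(FPKM + 0.5)) of the 5 tested Hox rows, of TALE cofactors and of other positional genes, with a point for each row drawn and a line for its 95% interval, in orange where it was higher past the threshold, blue where lower and grey where it did not pass. Hox rows run from -1.69 for Hoxb2 to 0.64 for Hoxd9, with Hoxa7 and Hoxd8 in grey near 0.

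Of the genes listed as TALE cofactors, 9 rows were tested, of which 3 were higher, 5 lower and 1 did not pass (88.9% passed, against 65.2% of all rows tested; median -0.16). The list also holds Tgif1, 1 of the 3 higher rows, and Tgif2, 1 of the 5 lower rows, which are TALE homeodomain repressors outside the Pbx, Meis and Pknox families. Meis3 rose from 3.11, 3.68 and 3.54 FPKM to 8.68, 7.58 and 7.26 FPKM. Meis1, the cofactor with the highest WT level among the Meis rows, fell from 28.9, 28.3 and 26.5 FPKM to 19.0, 18.7 and 16.7 FPKM. Pknox2 fell from 1.47, 1.58 and 1.35 FPKM to 0.277, 0.273 and 0.265 FPKM. Pbx3 did not pass (log2 fold change -0.14, adjusted p = 0.144). Meis2 and Pbxip1 had no row of their name, and the row of Pbx2, shared with Gpsm3, was left out of the count.

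Other positional transcription factors had rows for 60 of 61 genes. Of these, 21 were listed at 0 in all libraries and 23 were tested, 4 higher, 9 lower and 10 not passing (56.5% passed, below the 65.2% of all rows; median -0.09). Tbx18 fell from 55.4, 48.9 and 51.9 FPKM to 6.98, 7.12 and 9.91 FPKM, and Irx1 from 35.8, 32.7 and 41.5 FPKM to 10.3, 9.41 and 10.0 FPKM. Msx1, Twist1 and Irx3 fell by 1.26, 1.07 and 1.01 on the log2 scale. Tbx15, a T-box gene of trunk and subcutaneous fat, rose by 0.39 on the log2 scale. The forelimb gene Tbx5 and the hindlimb gene Pitx1 were listed at 0 in all libraries, and the hindlimb gene Tbx4 did not exceed 0.0357 FPKM. These 3 genes of forelimb or hindlimb identity were thus at or near 0 in both genotypes, as were Hoxa11, Hoxa13, Hoxd12 and Hoxd13, the Hox genes of the outer limb. They do not speak for all limb genes of the list. Prrx1, Prrx2 and Shox2, which also have parts in the limb, were on in both groups. Their means were 164, 32.9 and 26.7 FPKM in WT and 89.2, 30.5 and 14.5 FPKM in KO.

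Of the Polycomb and trithorax genes that set Hox activity, 27 were tested, 8 higher, 11 lower and 8 not passing (70.4% passed, near the 65.2% of all rows; median -0.06). Ash2l, a subunit of the trithorax-type histone methyltransferases, rose from 15.6, 17.9 and 15.4 FPKM to 33.8, 33.3 and 32.5 FPKM. Kmt2a, listed under its older name Mll1, rose by 0.27 on the log2 scale. Ezh2 fell by 0.21 (adjusted p = 0.0109), a call lost under both other scalings (adjusted p = 0.0832 and 0.166). Of other Polycomb genes past the threshold, Eed and Suz12 fell by 0.81 and 0.46, while Cbx2 and Phc3 rose by 0.47 and 0.37. Of other trithorax genes past it, Men1 and Wdr5 fell by 0.40 and 0.34, while Ash1l and Kmt2c rose by 0.80 and 0.41. Neither side of the list thus moved in a single direction.

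Retinoic acid and Gdf11 are embryonic inputs to Hox genes. Of this list, 8 were tested, 2 higher, 2 lower and 4 not passing (50.0% passed, against 65.2% of all rows; median 0.20). Rxrb, a retinoid receptor, was listed at 0 in WT replicate 1 beside 49.8 and 46.6 FPKM in the other WT libraries and 23.6, 23.7 and 22.2 FPKM in KO. Without it the median was 0.03, a value computed after its libraries were seen. Gdf11, a ligand that shifts Hox patterns towards the tail, rose from 4.17, 5.28 and 4.40 FPKM to 19.6, 23.0 and 21.2 FPKM (log2 fold change 2.09, adjusted p = 2.12e-05). Cyp26b1, an enzyme that breaks down retinoic acid, fell from 6.49, 6.09 and 5.11 FPKM to 0.553, 0.780 and 0.835 FPKM. The Cdx genes, which act on trunk Hox genes, were at or near 0: Cdx2 and Cdx4 were listed at 0 in all libraries and Cdx1 reached 0.164 FPKM. Of genes reported as targets of Hox proteins, 10 were tested, 3 higher, 4 lower and 3 not passing (70.0% passed, near the 65.2% of all rows; median 0.08). That median turned to -0.16 without Angpt2, which was listed at 0 in 1 library of each group. Enpp2, which makes lysophosphatidic acid, rose from 18.2, 16.0 and 12.5 FPKM to 57.8, 54.3 and 64.1 FPKM.

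Inside the clusters, 12 rows of noncoding RNAs and Evx genes were found, none high enough to be tested, and 8 were listed at 0 in all libraries. Hotair, the antisense RNA of the Hoxc cluster, was between 0.0181 and 0.0788 FPKM in WT and between 0.0589 and 0.145 FPKM in KO. Outside them, 14 flanking genes were tested, 3 higher, 7 lower and 4 not passing (71.4% passed, near the 65.2% of all rows; median -0.40). Cbx1, 1 of the 4, was listed at 0 in KO replicate 1 beside 35.0 and 37.6 FPKM in the other KO libraries and 57.8, 57.3 and 55.3 FPKM in WT, and it passed without that library (log2 fold change -0.64, adjusted p = 0.000481). The tested flanking genes nearest to Hoxa, Skap2 and Hibadh, fell by 0.67 and 0.45 on the log2 scale while Hoxa7 did not pass. Snx10, at 565 kb, fell by 1.21. The nearest to Hoxb, Atp5g1 at 119 kb and Snx11 at 399 kb, fell by 0.24 and 0.93 beside Hoxb2, which fell by 1.69, and the call of Atp5g1 was lost under both other scalings. At Hoxc, where no Hox row was on, Cbx5 and Calcoco1 rose by 0.38 and 1.06. At Hoxd, Mtx2 at 60.7 kb fell by 0.44 and Lnpk at 88.9 kb did not pass (adjusted p = 0.192), beside Hoxd9, which rose by 0.64. The call of Mtx2 was lost under quantile normalization (adjusted p = 0.0592), and Hoxd8, at -0.13, did not pass.

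**Figure D4:**
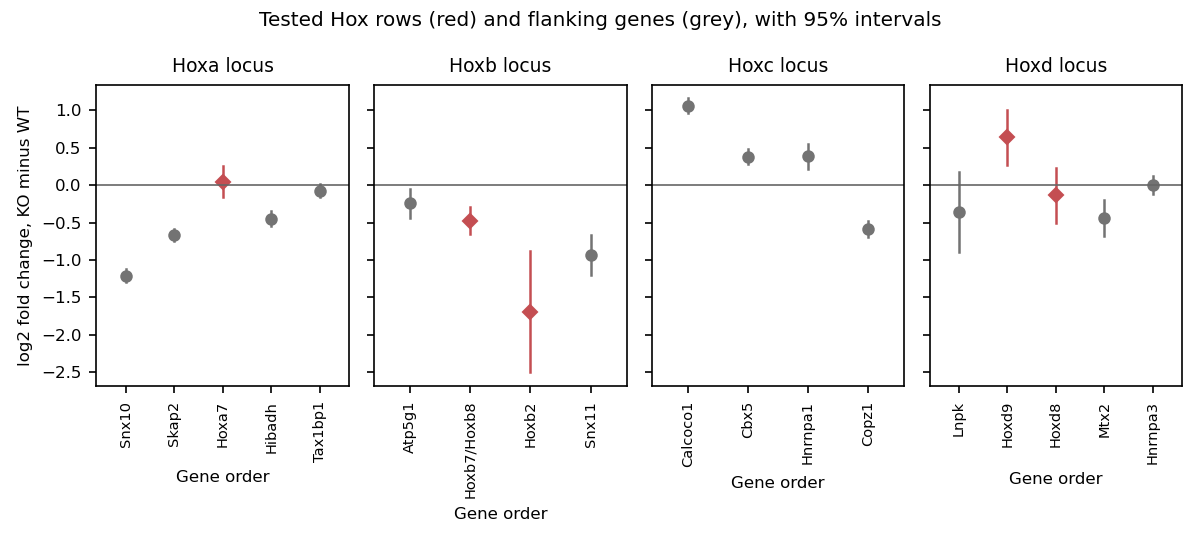
Log2 fold change (KO minus WT) of tested rows in gene order at each of the 4 Hox loci, with red diamonds for Hox rows, grey circles for flanking genes and lines for 95% intervals; rows with a library at 0 are left out. Hoxb2 at -1.69 lies further from 0 than any flanking gene drawn, and Hoxd9 at 0.64 lies above Mtx2 at -0.44.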

How the data were processed

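RNA sequencing of 3 WT and 3 SWELL1 KO libraries was analysed from 1 deposited table of 31097 rows. The deposited values are taken to be FPKM, which the authors made with TopHat and Cufflinks 2.02 on GRCm38, per the submitters' processing notes; the unit itself is inferred from the tools and the values, and no source used here gives strandedness or further settings. Values were used as deposited. The 10515 rows whose mean over all 6 libraries reached 0.5 FPKM were tested on log2(FPKM + 0.5), which understates changes of low genes, with limma 3.58.1 in R 4.3.3 (mean-variance trend, two-sided, Benjamini-Hochberg over all rows, threshold 0.05). Only the limma step was tried on simulated data, with a much smaller share of changed rows than was called here. Other steps were not simulated. Depth was estimated from 1183 single-transcript genes of 2500 bases or more, of which 384 to 488 had a value above 0 in a library. It was taken as the most common depth implied if each such value stood for 1 fragment. Fragments per gene were computed from this depth. These numbers cover counting error only.

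A Hox gene was matched by name, also within rows of several names; rows shared with another coding gene were kept for Hox genes and left out of the other lists. Older symbols were matched through the RefSeq gene table. Positions, 3′ UTRs and antisense overlaps come from GENCODE M21 (GRCm38), and promoters and miRNAs from RefSeq (GRCm38.p6). All Hox genes were named. Of the other lists, genes past the threshold were named with at least a 2-fold change in mean and 1 FPKM in a group. At most 6 each way were taken. Pbx3, Meis1, Meis2, Tbx5, Tbx4, Pitx1, Tbx15, Kmt2a, Ezh2 and the nearest flanking genes were named whatever their values. Any other gene named was chosen after its values were seen. The lists covered TALE cofactors, other positional factors, Polycomb and trithorax genes, retinoid, Gdf11 and Cdx inputs, Hox targets, noncoding and Evx genes, flanking genes and cell type markers. A few members of these lists are not reported here. Members and lists were chosen with earlier results of these data known. Alternatives changed the pseudocount, the filter, the scaling, the variance fit, the replicate block and the libraries included. Python 3.11.15, scipy 1.17.1, pandas 2.3.3 and matplotlib 3.10.9 were used.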

Additional observations from a re-analysis of the deposited data

How the results depend on the processing

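The count of Hox rows past the threshold, 3, was the same with a pseudocount of 0.1 or 1, a filter at a mean of 1 FPKM, median-ratio scaling, quantile normalization and a robust variance. With no filter on low values it was 5, of 12 rows tested, by the addition of Hoxc6 and Hoxc13, where 45.4% of all 16722 rows passed. Leaving out each library in turn gave 3 to 4, where Hoxd8 was added without SWELL1 KO replicate 1. Over the same leave-one-out fits, the log2 fold change of Hoxb2 ranged from -2.06 to -1.43. Over all rows the count was 6860, from 6303 without SWELL1 KO replicate 2 to 7595 with no filter, and over the other lists 61, from 52 without WT replicate 2 to 69 with no filter.

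Signs turned for a few rows, the cause of which was not tested. Leaving out libraries, Hoxa7 ranged from -0.036 (without WT replicate 1) to 0.12. Tax1bp1 was at 0.015 under median-ratio scaling and at 0.16 under quantile normalization. Hnrnpa3 was at -0.000853 without WT replicate 1, -0.032 without WT replicate 2 and -0.00218 without SWELL1 KO replicate 2, and at most 0.052 without another library. Mtx2 lost its call under quantile normalization (adjusted p = 0.0592). The share of calls that were higher in KO was 43.7%, against 50.7% under median-ratio scaling and 50.4% under quantile normalization.

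The labels give both groups replicate numbers 1 to 3. Deviations of same-numbered libraries correlated at 0.00342, 0.0116 and -0.0932, so the numbers were not taken to pair libraries. With the replicate number as a block, 6534 of all rows, 3 Hox rows and 54 rows of the other lists passed.

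Depth limits the low Hox rows: Hoxb9, Hoxc5 with Hoxc10 and Hoxc11 rest on about 1 to 2 fragments per library, so differences there were not detectable at this depth.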
